A study of Mus musculus with 8 samples.

Results

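The genes described here encode the proteins of the cytosolic ribosome. They were chosen by symbol alone, as every gene named Rpl or Rps with a number, together with Rpsa, Rplp0, Rplp1 and Rplp2, and without the annotated "-ps" pseudogenes. Of the 16889 genes in the authors' normalized table, 86 met this rule, and all 86 passed the filter on low counts. A further 3 matching genes, Rps12l1, Rpl32l and Rpl10l, were in the count files but not in that table, with at most 0, 8 and 1 counts in any library. The 86 comprised 31 proteins of the small (40S) subunit, 46 of the large (60S) subunit, 5 paralogs (Rpl3l, Rpl7l1, Rpl22l1, Rpl39l and Rps27l) and 4 processed pseudogenes that carry a gene-like symbol (Rpl6l, Rps3a2, Rps3a3 and Rps4l).

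RNA came from endothelial cells (ECs) of mouse brains at postnatal day 9, captured on beads against CD31, a surface protein of endothelium, with 1 library made per pup. The 4 mutant pups were R26GT-Map2k1-GFP/+; Tg-Cdh5CreER+/-, in which Cre under the endothelial Cdh5 promoter switches on an activated MAP2K1 (K57N) from the Rosa locus, and the 4 controls were wild type pups, with tamoxifen given to pups at day 1. MAP2K1 is the kinase upstream of ERK1/2, and the study asked how EC transcripts change when it is active. The mutant allele was over-expressed and recombined in only some of the ECs, so a mutant library mixed cells with and without it, and nothing in the labels says that the wild type pups carried Cre.

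A ribosome is built from rRNA and a nearly fixed set of proteins, most of them present in a single copy, and EC growth depends on making new ribosomes. Most ribosomal protein mRNAs start with a C inside a short run of pyrimidines, the terminal oligopyrimidine (TOP) motif, through which mTOR and the RNA-binding protein LARP1 set their translation together. ERK signalling reaches the same machinery through MYC, the RSK and MNK kinases and the transcription of rRNA.

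Total counts per library were 24833373 to 34196955 in mutant and 28146348 to 32208421 in wild type ECs. Map2k1, which checks the labels, had 18734, 12692, 12707 and 14342 normalized counts in Mutant 1 to 4 and 1640, 1762, 1535 and 1506 in Wild type 1 to 4 (log2 fold change 3.18, edgeR adjusted p = 2.84e-07). Libraries of the same group differed by more than sampling noise, with a chi-square per degree of freedom of 4.96 to 48.9. The summed level of 10 endothelial markers was 363544 to 440462 in mutant and 342045 to 414596 in wild type libraries. Of these markers 3 were higher (Cdh5, Pecam1 and Emcn) and 3 lower (Tek, Kdr and Cldn5). Single genes are counted as higher or lower at an adjusted p under 0.05, as were 21.5% and 22.9% of all genes tested. Oligodendrocyte markers were lower in mutant libraries for 6 of 6 genes (767 to 1648 against 2613 to 7630 summed normalized counts), and so were red blood cell markers for 6 of 6 (2648 to 8529 against 15883 to 27551). Neuron markers were lower for 4 of 6 (576 to 831 against 883 to 1991). The astrocyte markers summed to 18358 to 22050 against 10698 to 12722, with 1 of 5 genes higher, Gja1, a connexin that ECs also express, and a list median of -0.58 (log2). Markers of microglia, neutrophils, pericytes, smooth muscle and fibroblasts overlapped between the groups in their summed level, as did 8 proliferation genes (18553 to 21256 against 17549 to 22166). Among these lists 3 proliferation genes were higher (Cdk1, Mcm5 and Birc5) and 1 lower, 2 of 8 pericyte genes and 1 of 4 smooth muscle genes were higher, 2 of 4 fibroblast genes were higher and 1 lower, and no microglia or neutrophil gene was called. No marker of these lists was at 0 in every library, and the part of these other cells in the results that follow was not tested.

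Ribosomal protein genes took a larger part of all counts in each mutant library than in any wild type library. The 86 genes held 3.36, 3.01, 3.35 and 3.75% of all counts in Mutant 1 to 4, and 2.70, 2.57, 2.66 and 2.73% in Wild type 1 to 4. The groups did not overlap, and Mutant 4 was the highest and Mutant 2 the lowest of the mutant libraries. The mean was 3.37% ± 0.301 against 2.66% ± 0.0714 (SD, n = 4 each), a ratio of 1.26. A two-sided exact permutation over libraries gave p = 0.0286, which is the lowest value 4 against 4 allows. After adjustment over the 11 such sums compared it was 0.0349. Most of these sums hold the same counts, so the adjustment adds little. In bulk RNA of this kind, more cells with many ribosomal protein mRNAs and more such mRNA per cell cannot be told apart. The library labels begin with a 4-character prefix that groups replicates 1 and 2, replicate 3 and replicate 4. Within these prefixes the mutant share was higher by 0.552, 0.685 and 1.01 percentage points.

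**Figure D1:**
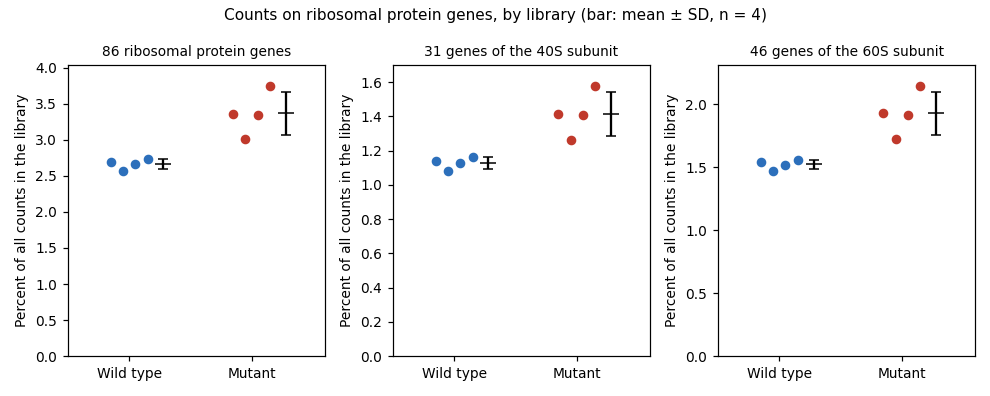
Percent of all counts in each library that fell on the 86 ribosomal protein genes (left), the 31 genes of the 40S subunit (middle) and the 46 genes of the 60S subunit (right). Points are libraries (blue, wild type; red, mutant) and bars are the mean ± SD of 4 libraries; in each panel the 4 mutant points lie above the 4 wild type points.

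Counts on the genes of both subunits rose to nearly the same degree. The 40S genes held 1.42% ± 0.129 of counts in mutant and 1.13% ± 0.0330 in wild type libraries, and the 60S genes 1.93% ± 0.171 and 1.52% ± 0.0385 (SD, n = 4; exact permutation p = 0.0286 for each). The ratio of 60S to 40S counts was 1.364 ± 0.00472 in mutant and 1.351 ± 0.00654 in wild type libraries. These values did not overlap (exact permutation p = 0.0286, adjusted 0.0349), but the difference was 0.0133 counts per 40S count. The 78 genes for mitochondrial ribosomal proteins, which serve the separate ribosome of that organelle, held 0.120% ± 0.00415 and 0.113% ± 0.00538 (exact permutation p = 0.0571). The log2 fold change was above 0 for 61 of these 78, against 48.2% of all genes tested. The "-ps" pseudogenes, whose sequences resemble the members and could draw their reads, held 0.00937% ± 0.00113 and 0.00944% ± 0.000658 (exact permutation p = 0.914).

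Gene by gene, 64 of the 86 rose in mutant ECs by edgeR's quasi-likelihood test, with a Benjamini-Hochberg p over 16887 genes below 0.05, and 22 were not called. Over all genes tested, 44.4% were called, 21.5% higher and 22.9% lower. No ribosomal protein gene was lower, at an adjusted or an unadjusted p under 0.05, and DESeq2 called 67 higher and 0 lower. The changes were small and alike. The median log2 fold change was 0.38 (1.30-fold), the middle 50% of genes lay between 0.30 and 0.46, and the range ran from -0.21 for Rps3a3 to 0.75 for Rps27l. The median over all genes tested was -0.02. None of the 86 changed by more than 2-fold, a size reached by 14% of all genes together with an adjusted p under 0.05, and only 6 exceeded 1.5-fold. All 4 mutant libraries lay above all 4 wild type libraries for 56 of the 86 genes, against 20.6% of all genes tested.

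Among the 77 subunit genes, 24 of 31 in the 40S (median 0.37) and 37 of 46 in the 60S (median 0.38) rose. The fitted log2 fold change was above 0 for 76 of them, with Rpl38 the exception. All 77 were abundant, with mean normalized counts between 1917 and 32026, and the SE of their log2 fold change was 0.07 to 0.14.

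**Figure D2:**
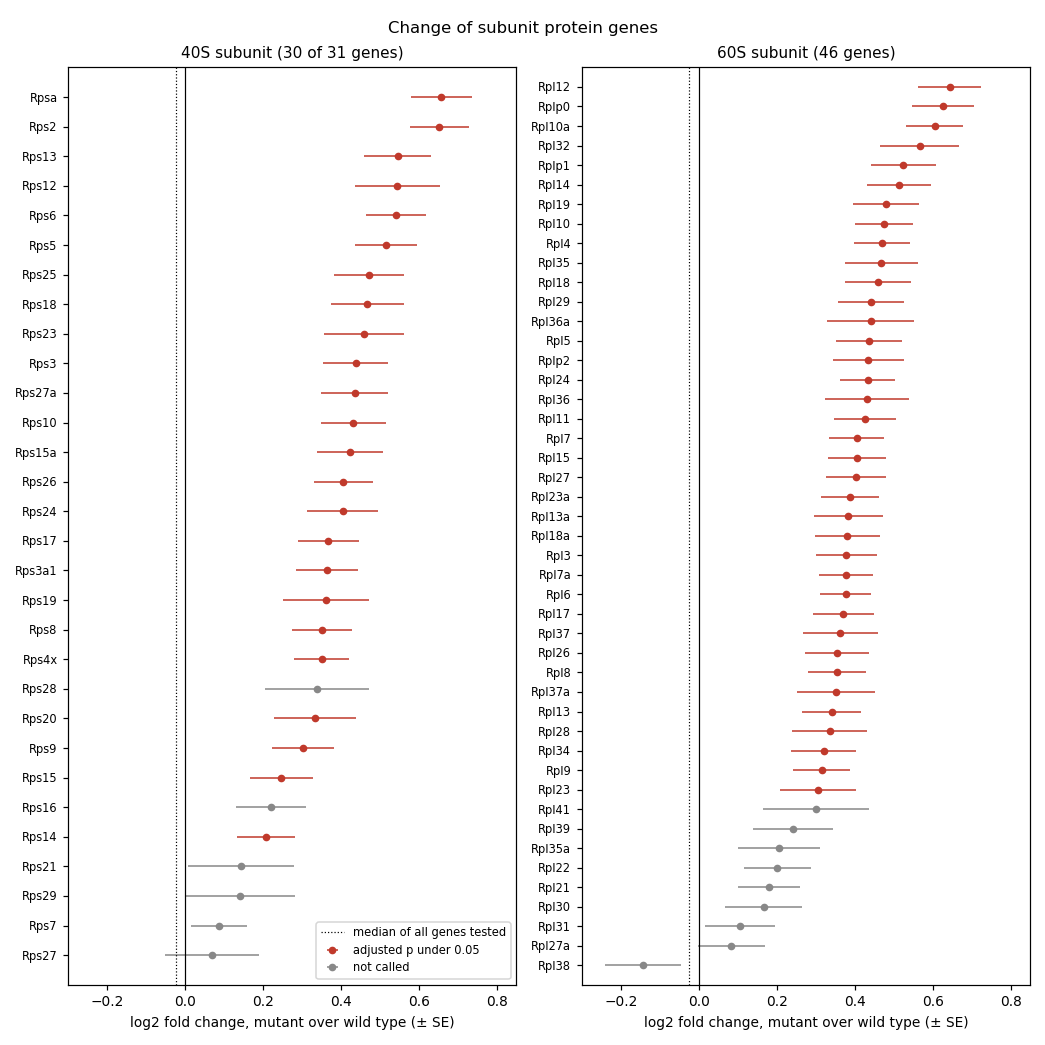
Log2 fold change, mutant over wild type, of 30 of the 31 genes of the 40S (left) and the 46 of the 60S (right) subunit, with bars of ± 1 SE; red points passed an adjusted p under 0.05 and the dotted line is the median of all genes tested. Most genes lie between 0.2 and 0.65, and Rpl38 alone lies below 0.

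Among 40S genes, the largest rises were in Rpsa and Rps2. Rpsa (ENSMUSG00000032518, chr9:120127689-120132369, GRCm38), the 40S protein also known as the laminin receptor, had 29045, 24911, 25143 and 26262 normalized counts in Mutant 1 to 4 and 17524, 17426, 15920 and 15932 in Wild type 1 to 4. The lowest mutant value was well above the highest wild type value (log2 fold change 0.66, SE 0.08, adjusted p = 1.16e-04). Rps2 (ENSMUSG00000044533, chr17:24718116-24721929), which lies at the mRNA entry channel, had 40553, 35547, 36450 and 40604 against 25205, 24910, 23354 and 23966 normalized counts, again without overlap. Its log2 fold change was 0.65 (SE 0.08, adjusted p = 1.01e-04). Rps2 also took a larger part of the ribosomal protein counts themselves, 3.64 to 3.87% in mutant and 2.95 to 3.28% in wild type libraries. A gene that rises by more than most members gains part of this sum, and Rpsa, Rplp0 and Rps6 did so without overlap too.

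Rps6, the substrate of the S6 kinases, had 17588, 15086, 15226 and 17348 normalized counts in mutant and 11216, 10950, 10807 and 11874 in wild type libraries. The groups were apart and the log2 fold change was 0.54 (SE 0.08, adjusted p = 3.46e-04). Rps12 rose by a like amount (0.54, SE 0.11, adjusted p = 0.00241), with Mutant 4 the highest library at 15967 and Wild type 4 the highest control at 10830. Rps25, needed for initiation at several internal ribosome entry sites, rose by 0.47 (adjusted p = 0.00176), and Rps27a, made as a fusion to ubiquitin, by 0.43 (adjusted p = 0.00229). Smaller rises were seen in Rps3a1 (0.36, adjusted p = 0.00405) and Rps4x, the X-linked 40S gene (0.35, adjusted p = 0.00263). Rps19, the gene most often mutated in Diamond-Blackfan anaemia, had 9955, 7598, 8945 and 11272 against 7713, 7095, 7032 and 7559 normalized counts. Here the lowest mutant library, Mutant 2, fell below Wild type 1, and the log2 fold change of 0.36 (SE 0.11, adjusted p = 0.0223) lost its call without Wild type 2 (adjusted p = 0.0616).

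Transcripts for the proteins of the 60S stalks rose by 0.43 to 0.64 on the log2 scale. Rplp0 (ENSMUSG00000067274, chr5:115559467-115563727), the base on which the acidic stalk is built, had 42023, 35451, 36882 and 41130 normalized counts in mutant and 25918, 25178, 24005 and 25623 in wild type libraries. The groups were far apart (log2 fold change 0.63, SE 0.08, adjusted p = 1.65e-04). Rplp1 and Rplp2, the genes for the acidic proteins that bind this base, rose by 0.52 (SE 0.08, adjusted p = 6.53e-04) and 0.43 (SE 0.09, adjusted p = 0.00331). Rpl12, which sits beside the stalk base, had 13492, 11432, 12161 and 14168 against 8360, 8012, 7998 and 8440 normalized counts (0.64, SE 0.08, adjusted p = 1.56e-04). Rpl10a, the protein of the L1 stalk on the opposite side, had 11455, 10697, 10679 and 12509 against 7534, 7284, 7268 and 7734 (0.60, SE 0.07, adjusted p = 1.25e-04). For both genes each mutant library exceeded each wild type library.

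Other 60S genes of known role moved by intermediate amounts. Rpl5 and Rpl11, which carry the 5S rRNA and, when free of the ribosome, bind MDM2, rose by 0.44 (SE 0.08, adjusted p = 0.00202) and 0.43 (SE 0.08, adjusted p = 0.00163). Rpl10, which joins late in 60S maturation, rose by 0.47 (adjusted p = 5.93e-04), Rpl7 by 0.41 (adjusted p = 0.00109) and Rpl3, a protein of the peptidyl transferase centre, by 0.38 (adjusted p = 0.00293). Rpl13a is often used as a reference gene in quantitative PCR. It had 11263, 11139, 11043 and 13805 normalized counts in mutant and 9619, 8762, 8572 and 9284 in wild type ECs, so that it was 1.30-fold higher (SE 0.09 on the log2 scale, adjusted p = 0.00539) and its groups did not overlap.

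A set of 16 subunit genes did not pass the test, among them Rps28, Rps16, Rps21, Rps29, Rps7 and Rps27 of the 40S, and Rpl41, Rpl39, Rpl35a, Rpl22, Rpl21, Rpl30, Rpl31, Rpl27a and Rpl38 of the 60S. Of these, 5 had an unadjusted p under 0.05. DESeq2 called Rpl21, Rps16 and Rps28 higher, and edgeR with the label prefix as a block called these together with Rpl22 and Rpl39. By the study's methods wild type pups were picked from the litters of the mutant pups, but no label ties a prefix to a litter. Rpl38 (ENSMUSG00000057322, chr11:114668524-114672331), a 60S protein known for the selective translation of Hox mRNAs in the embryo, had 4366, 3720, 4838 and 4864 normalized counts in mutant and 5227, 4745, 4460 and 5224 in wild type libraries. The groups overlapped, and the log2 fold change was -0.14 (SE 0.10, 95% interval -0.36 to 0.07, adjusted p = 0.253). As a part of all ribosomal protein counts, Rpl38 held 0.413, 0.405, 0.492 and 0.436% in mutant and 0.656, 0.624, 0.602 and 0.644% in wild type libraries, which did not overlap. A gene that does not rise while most members do loses part of this sum. Rps27 did so as well, with means of 0.604% in mutant and 0.758% in wild type libraries, without overlap.

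The genes did not all follow the same libraries equally. Mutant 2 was the lowest mutant library for 72 of the 77 subunit genes, and Mutant 4 was the highest for 68. The median subunit gene stood 0.43, 0.25, 0.35 and 0.53 (log2) above the wild type mean in Mutant 1 to 4, and 72, 53, 70 and 75 genes lay above every wild type library. In the controls, Wild type 4 was highest for 49 genes and Wild type 3 lowest for 55. The median coefficient of variation was 9.28% in mutant and 5.66% in wild type libraries. Mutant 2 lay above the wild type mean for 65 of the 77 genes, and below it for Rps29, Rps27, Rps21 and Rpl41 among others. Rps29, chosen after its values were seen, had 4133, 2867, 4156 and 4901 normalized counts in mutant against 3605, 3548, 3330 and 4079 in wild type libraries, with Mutant 2 below all controls and the other mutant libraries above all of them. Within the label prefixes, 72, 77 and 75 of the 77 genes were higher in mutant libraries, with median log2 ratios of 0.35, 0.40 and 0.45, and 71 were higher within each prefix.

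**Figure D3:**
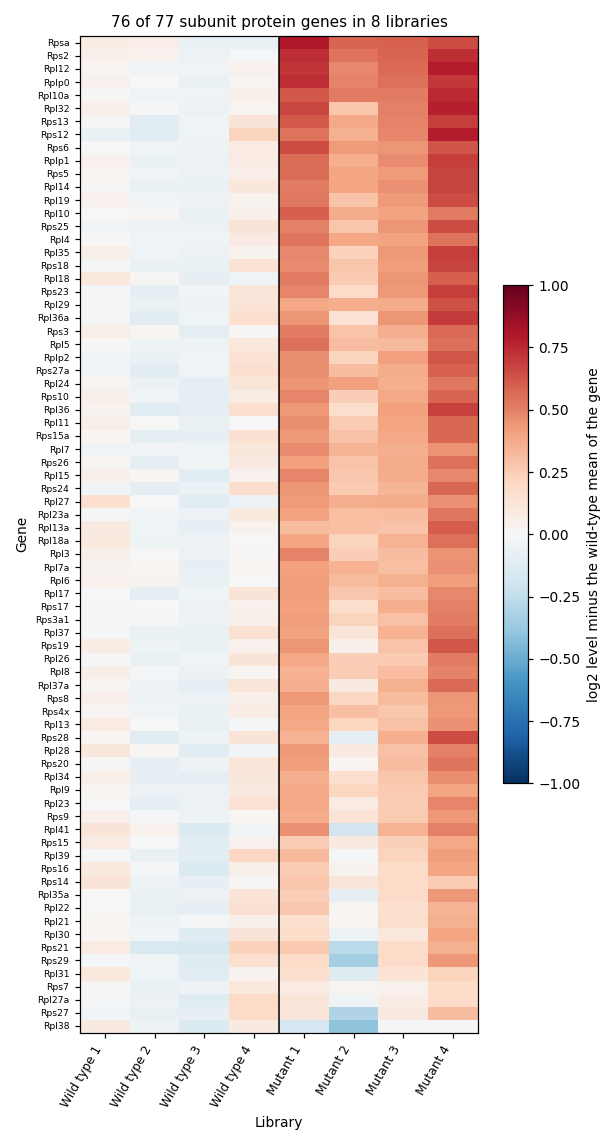
Level of 76 of the 77 subunit genes (rows, ordered by fitted log2 fold change) in the 8 libraries (columns), as log2 normalized counts minus the wild type mean of the gene. Red is higher and blue lower; Mutant 2 is the palest mutant column, and its blue cells are at Rpl38, Rps29, Rps27, Rps21 and other genes near the bottom.

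Calls were fewer among genes with short transcripts, a description that was not tested. Among the 25 subunit genes with the shortest principal transcripts (271 to 577 bases) 15 rose and 10 were not called, while among the middle 25 (583 to 835 bases) 22 rose and among the longest 27 (851 to 3706 bases) 24 rose. The median log2 fold changes of the short, middle and long genes were 0.35, 0.41 and 0.38. Across the 77 genes, which share their libraries and are not independent, Spearman's rho of the log2 fold change was 0.27 with transcript length, 0.20 with mean count and 0.07 with GC content. With exon length summed over all annotated isoforms, the rho was 0.10. After the trend of counts with this exon length over all genes was removed, 62 of the 86 genes rose. The rho with principal transcript length was then 0.30, but the removed trend was not fitted on that length.

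Per kilobase of exon and averaged over the 8 libraries, Rplp1, Rps12 and Rps3a1 had the highest levels of the 86 genes. In wild type ECs these were 21396 ± 1114, 19535 ± 2173 and 18649 ± 608 normalized counts per kilobase (SD, n = 4), and neighbours in this order differed by less than the SD of Rps12. The exon length sums all annotated isoforms, and per kilobase of the principal transcript Rps14 and Rps2 came first. The lowest levels per kilobase of exon were those of Rps3a3, Rpl39l and Rpl3l, at 29.1, 15.1 and 13.1 in wild type ECs.

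Rps27l, a paralog of Rps27 whose transcription p53 induces, showed the largest rise of all 86 genes. Rps27l (ENSMUSG00000036781, chr9:66946086-66949516) had 1176, 948, 1107 and 1391 normalized counts in mutant and 692, 668, 693 and 699 in wild type libraries. Each mutant library exceeded each control, while the controls differed little (log2 fold change 0.75, SE 0.11, adjusted p = 3.61e-04). Its parent Rps27 had 6406, 4779, 6241 and 7298 against 5770, 5589, 5545 and 6675 normalized counts, overlapping groups with a log2 fold change of 0.07 (SE 0.12, adjusted p = 0.672). Per 100 Rps27 counts, Rps27l therefore stood at 18.4, 19.8, 17.7 and 19.1 in mutant and between 10.5 (Wild type 4) and 12.5 (Wild type 3) in wild type libraries, without overlap.

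Of the other paralogs, Rpl22l1 and Rpl7l1 rose. Rpl22l1, whose mRNA is repressed by the Rpl22 protein, had 2304, 2031, 2204 and 2227 normalized counts in mutant and 1564, 1544, 1503 and 1625 in wild type libraries, without overlap (log2 fold change 0.49, SE 0.06, adjusted p = 1.92e-04). Rpl22 itself had a log2 fold change of 0.20 (SE 0.09, adjusted p = 0.0800). Per 100 Rpl22 counts there were 40.9, 42.6, 42.4 and 37.7 counts of Rpl22l1 in mutant and 33.6, 34.8, 34.0 and 31.3 in wild type libraries, and these did not overlap. Rpl7l1 rose by 0.45 (SE 0.07, adjusted p = 4.14e-04), close to its parent Rpl7, and its ratio to Rpl7 overlapped between the groups. The muscle paralog Rpl3l (15.5 to 35.5 against 9.21 to 32.7 normalized counts) and the testis paralog Rpl39l (14.8 to 18.8 against 8.44 to 15.7) had few counts and were not called. Rpl39, parent of the latter, had a log2 fold change of 0.24 (SE 0.10, adjusted p = 0.0817).

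None of the 4 processed pseudogenes was called, and reads from their parents may be counted on them. Rps4l, a transcribed copy of Rps4x, had 694, 698, 527 and 587 normalized counts in mutant and 707, 767, 488 and 589 in wild type libraries (log2 fold change -0.03, SE 0.15, adjusted p = 0.900), while Rps4x rose. Rps3a3, with 11.1 to 28.7 against 17.5 to 30.1 normalized counts, had a log2 fold change of -0.21 (SE 0.33, adjusted p = 0.625). Rps3a2, chosen after its values were seen, had 78.5, 90.7, 52.1 and 77.5 normalized counts in mutant and 58.9, 50.8, 44.1 and 49.6 in wild type libraries (0.55, SE 0.21, adjusted p = 0.0559), with Mutant 3 below Wild type 1. It was called higher with the label prefix as a block, with TMM factors taken without the members and without Mutant 3. Rpl6l, also chosen in this way, ranged from 18.8 to 35.5 in mutant and from 22.6 to 24.3 in wild type libraries (0.16, SE 0.27, adjusted p = 0.651). The groups overlapped for all 4 pseudogenes.

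**Figure D4:**
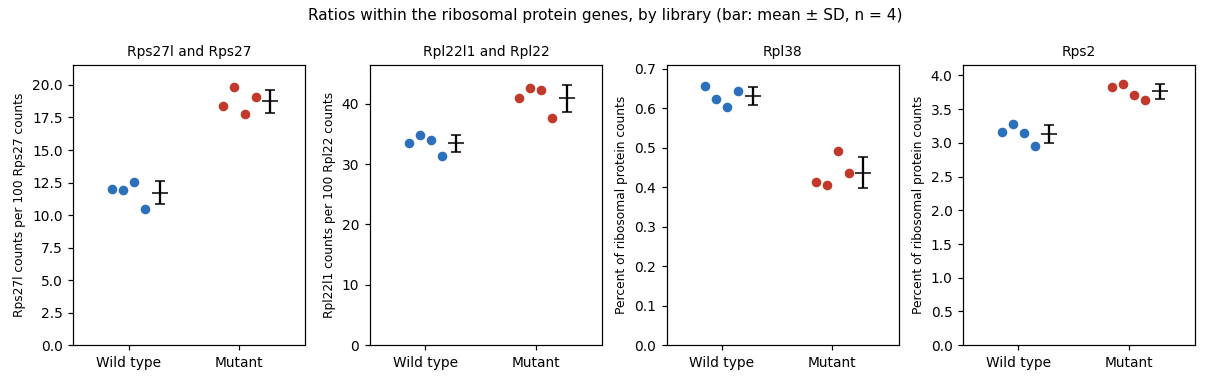
Ratios within the ribosomal protein genes by library: Rps27l counts per 100 Rps27 counts, Rpl22l1 counts per 100 Rpl22 counts, and the percent of all ribosomal protein counts on Rpl38 and on Rps2. Points are libraries (wild type in blue, mutant in red), bars are the mean ± SD of 4 libraries, and in no panel do the groups overlap. Rpl38 is lower and the other ratios are higher in mutant libraries. A percent of this sum moves whenever a gene changes by more or less than most members.

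The start sites of the members were then examined for runs of pyrimidines, which TOP mRNAs carry at their first base, and for promoter motifs. RefSeq promoters (GRCm38.p6, 250 bases before to 50 after the annotated start) were at hand for 62 of the 86 genes. An unbroken run of at least 8 pyrimidines touching the stretch from 10 bases before to 15 after the start was present in 30 of 62 (48.4%), against 17.6% of all 27025 genes in the table. The run need not hold the start base. That of Rpl4 ended before it, and that of Rpl11 began 13 bases after it. The share is therefore not a count of TOP mRNAs. Runs of at least 8 pyrimidines are shown for 3 genes that rose, for Rpl22l1, and for 3 that were not called, since the run was found on both sides of the call. Each line gives 30 bases of the coding strand from 10 before to 19 after the annotated start, with the run in capitals.
Rps6, chr4:86857348-86857377, minus strand: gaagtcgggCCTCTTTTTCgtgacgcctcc
Rpl15, chr14:18270967-18270996, minus strand: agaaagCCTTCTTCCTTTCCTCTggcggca
Rps18, chr17:33955646-33955675, minus strand: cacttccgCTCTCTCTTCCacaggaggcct
Rpl22l1, chr3:28805498-28805527, plus strand: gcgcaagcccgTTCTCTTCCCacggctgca
Rps27, chr3:90213629-90213658, minus strand: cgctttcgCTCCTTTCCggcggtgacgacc
Rpl38, chr11:114668570-114668599, plus strand: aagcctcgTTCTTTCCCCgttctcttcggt
Rpl27a, chr7:109519185-109519214, plus strand: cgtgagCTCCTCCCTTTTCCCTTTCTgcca

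Among the genes with a promoter, the run was found in 24 of the 48 that rose and in 6 of the 14 that were not called. Thus Rpl38 and Rps27, with log2 fold changes of -0.14 and 0.07, carry runs like those of Rps6, at 0.54, and Rpl15, at 0.41. The letters CCGGAA, a core that ETS family factors can bind, occurred on either strand of the 300-base promoter in 35 of 62 members (56.5%), against 16.7% of all genes. They were present in 26 of 48 members that rose and in 9 of 14 that were not called. CACGTG, the E-box of MYC, occurred in 6 of 62 (9.68%) against 8.09% of all genes, in 6 of the 48 members that rose and 0 of the 14 not called. TATAAA occurred in 7 of 62 (11.3%) against 15.7%. A match is only a description of these letters, and none of these shares was tested. Rps18, which rose by 0.47 (SE 0.09, adjusted p = 0.00243), had 5 CCGGAA matches over both strands, since TTCCGGAA holds a match on each, and is shown as an example. The 250 bases before its start (chr17:33955666-33955915, minus strand) are given with the matches in capitals.
Rps18 promoter: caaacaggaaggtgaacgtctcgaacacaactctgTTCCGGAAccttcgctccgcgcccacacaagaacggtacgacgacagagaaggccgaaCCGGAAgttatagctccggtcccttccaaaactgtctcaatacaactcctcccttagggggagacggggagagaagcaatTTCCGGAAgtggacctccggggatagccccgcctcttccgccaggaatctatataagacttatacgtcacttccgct

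Of 4 ribosomal protein genes that the symbol rule leaves out, 3 rose (75%, against 21.5% of all genes tested) and none fell. None fell at an unadjusted p under 0.05 or with DESeq2 either. Rack1, the scaffold on the 40S head, had 24357, 20817, 20913 and 24780 normalized counts in mutant and 14354, 14045, 13647 and 14403 in wild type libraries, without overlap (log2 fold change 0.69, SE 0.08, adjusted p = 1.10e-04). Rpl36al rose as well. Fau, which encodes a 40S protein fused to a ubiquitin-like protein, had a log2 fold change of 0.21 (SE 0.10, adjusted p = 0.110).

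The factors that use and build the ribosome were read from the same fit, in which 21.5% of all genes tested were higher and 22.9% lower. Of 8 genes for elongation factors and related proteins, 7 rose and 1, a kinase gene, fell, with a median log2 fold change of 0.59. Eif5a, which helps ribosomes through stretches of proline, rose by 0.75 (SE 0.08, adjusted p = 5.11e-05), and Eef2k, the kinase that inhibits elongation factor 2, fell by 0.71 (SE 0.15, adjusted p = 0.00292). Of 37 initiation factor genes 25 rose and 1 fell (median 0.34). Eif3b, a scaffold of the initiation factor 3 complex, rose by 0.61 (SE 0.06, adjusted p = 4.23e-05), and the helicase Eif4a2 fell by 0.45 (SE 0.09, adjusted p = 0.00226). Assembly and export factors of the subunits rose in 36 of 40 cases and none fell, at an adjusted or an unadjusted p under 0.05 and with DESeq2 (median 0.51). Tsr1, a late 40S assembly factor, had 1366, 1324, 1344 and 1381 normalized counts against 597, 587, 629 and 664, without overlap (1.13, SE 0.07, adjusted p = 2.44e-06).

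Other genes with TOP mRNAs gave 9 higher (75%) and 1 lower (8.33%) of 12 (median 0.31), against 21.5% and 22.9% of all genes tested. Npm1, a nucleolar chaperone of ribosome assembly, rose by 1.11 (SE 0.07, adjusted p = 1.82e-06), and the snoRNA host Gas5 fell by 0.28 (SE 0.08, adjusted p = 0.0143). The call of Gas5 was lost without Wild type 1 (adjusted p = 0.0584) and after the length trend, alone or with the GC trend, was removed. The list for RNA polymerase I, which makes rRNA, and its factors gave 7 higher (36.8%) and 2 lower (10.5%) of 19 (median 0.20). It also holds Polr2e, Polr2f, Polr2h, Polr2k and Polr2l, which are named after RNA polymerase II. Polr1d rose by 0.51 (adjusted p = 2.64e-04) and Taf1b, of the promoter selectivity factor, fell by 0.66 (adjusted p = 0.00172). Of the 78 mitochondrial ribosomal protein genes, 21 rose (26.9%, against 21.5% of all genes) and 3 fell (3.85%, against 22.9%), with a median of 0.18, with Mrpl33 at 0.68 (adjusted p = 2.36e-04) and Mrps5 at -0.36 (adjusted p = 0.00417). Of the 48 "-ps" pseudogenes tested, 7 were higher (14.6%) and 6 lower (12.5%), both below the shares over all genes tested.

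The genes that control TOP mRNAs and the S6 kinases gave 4 higher (22.2%) and 5 lower (27.8%) of 18 (median -0.01), near the shares of 21.5% and 22.9% over all genes tested. Eif4ebp1, the cap-binding inhibitor downstream of mTOR, had 1993, 1416, 1246 and 1993 normalized counts in mutant and 372, 356, 290 and 351 in wild type libraries (2.28, SE 0.16, adjusted p = 6.35e-06). Its groups were far apart. Myc, Larp1 and Rps6ka2 rose as well, and Mycn fell by 1.36 (SE 0.22, adjusted p = 6.96e-04), together with Mknk1, Mknk2, Rps6ka6 and Rps6kb2. The call of Rps6kb2 was lost without Wild type 1, without Wild type 2 and without the count filter. It was also lost after the length trend, alone or with the GC trend, was removed. Rps6kb1, which encodes the main S6 kinase, and Mtor had log2 fold changes of -0.07 and -0.04 and were not called. In the list of the 5S particle and p53 response 7 of 11 rose (63.6%, against 21.5% of all genes) and 2 fell (18.2%, against 22.9%). The median was 0.35, and Rrs1 is counted both in this list and among the assembly factors. Phlda3, a p53 target that inhibits AKT, had 1091, 887, 889 and 1437 against 161, 152, 199 and 172 normalized counts, without overlap (2.65, SE 0.17, adjusted p = 3.35e-06), and Mdm4, an inhibitor of p53, fell by 0.48 (SE 0.10, adjusted p = 0.00237). Bbc3 of this list also fell (-0.75, SE 0.17, adjusted p = 0.00431), a call lost after the length and GC trends were removed. Cdkn1a rose by 0.22 (adjusted p = 0.0375), a call lost in several settings, and Trp53 and Sesn2 were not called. Ribosome rescue and quality control factors gave 6 higher (54.5%, against 21.5% of all genes) and 0 lower of 11. There were 0 lower also at an unadjusted p under 0.05 and with DESeq2. The recycling factor Abce1 rose by 0.55 (SE 0.08, adjusted p = 3.95e-04).

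**Figure D5:**
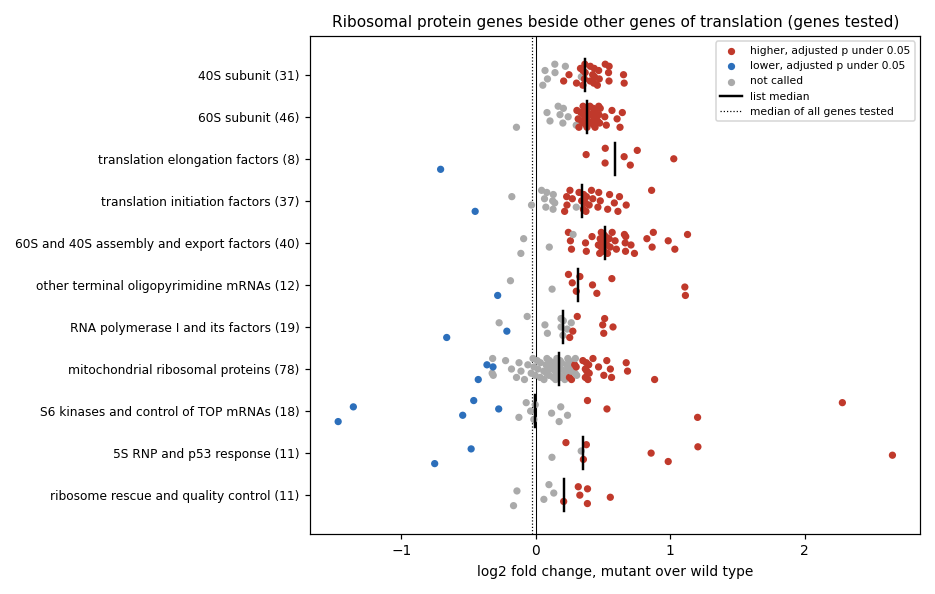
Log2 fold change, mutant over wild type, of each gene in the 40S and 60S subunit lists and in 9 lists of other genes of translation (number of genes tested in brackets). Red and blue points passed an adjusted p under 0.05, grey did not, black bars are list medians and the dotted line is the median of all genes tested; the 2 subunit lists are narrow and lie to the right of 0, the S6 kinase and TOP control list is wide.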

How the data were processed

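RNA sequencing libraries of brain ECs, 4 mutant and 4 wild type, were grouped by their labels. The authors prepared libraries from poly(A) RNA, used Trimmomatic for trimming and STAR for mapping to GRCm38, and deposited whole-number counts per gene and library; the counting program, annotation and use of strand are not given in the sources used here. They also deposited a signal for 16889 genes, the counts divided by 1 DESeq2 size factor per library, of which 100% returned whole reads within 0.01; this table set which genes were members.

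The count model was fitted with edgeR 4.0.16 (R 4.3.3): TMM scaling, filterByExpr (minimum count 10), glmQLFit and glmQLFTest without covariates, and Benjamini-Hochberg adjustment over 16887 genes. Normalized counts given for genes are TMM-scaled. Called means an adjusted p under 0.05. Sums per library were compared by exact two-sided permutation. Symbols, positions and lengths came from GENCODE vM21 (49056 of 49315 identifiers matched). Principal transcripts were those tagged by APPRIS. The script was tested on simulated counts.

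The members and gene lists were chosen with earlier results of these data known. Genes named with values were the 6 largest rises, paralogs with their parents, members of known role, the 3 highest and 3 lowest per kilobase, and in each related list the called gene of smallest p in each direction with Fau and Rack1; other genes named were chosen after their values were seen. Reads of members and near-identical pseudogenes may be exchanged. Of the members, 36 share exon bases with another gene, and 9 (Rpl35, Rpl23a, Rpl24, Rpl13a, Rpl31, Rpl5, Rps25 and Rpl32 among them) at least 10% of them, which makes their counts uncertain. Libraries held 24833373 to 34196955 counts, and libraries of a group differed by more than counting noise; with 1 library per pup, spread between pups and from preparation cannot be told apart. Alternatives were DESeq2 1.42.0, other scalings, filters and thresholds, blocks, length and GC trends, added pseudogene counts and each library left out; the GC trend was added after seeing the data. The single values of 2 genes are not reported here, and the plots by gene leave out 1 of them.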

Additional observations from a re-analysis of the deposited data

Results flagged for a closer look

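In 4 of the 70 groups of 4 libraries examined, a library stood apart from the other three by Dixon's 95% limit, where chance gives about 1 group in 20. Rpl13a in mutant ECs had a gap of 0.920 of the group's range, from 13805 normalized counts in Mutant 4 to 11263 in the next library, and without Mutant 4 its log2 fold change was 0.32 (edgeR, adjusted p = 0.00477). In wild type ECs the library that stood apart was Wild type 4 for each of Rpl7 (0.915; 14731 against 13324), Rps25 (0.853; 7941 against 7114) and Rplp2 (0.833; 6738 against 5972). Without Wild type 4 the log2 fold change was 0.44 for Rpl7, 0.52 for Rps25 and 0.48 for Rplp2, each still called.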

How the results depend on the processing

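The number of ribosomal protein genes called higher was 59 to 72 with each library left out in turn and 60 to 70 under the other scalings, filters, blocks and trends, with 0 called lower in each of these. Of the 64 genes, 59 were called in all 20 of these settings, and Rpl23, Rps14, Rps15, Rps19 and Rps20 were not. At an adjusted p under 0.01, 54 were higher, and with a limit of 2-fold the count was 0. The median log2 fold change was 0.37 to 0.43 with a library left out and 0.32 to 0.41 otherwise. The difference in the share of counts was 0.574 to 0.819 percentage points with a library left out. Its exact permutation p was 0.0571 without any wild type library, although the groups still did not overlap, and the difference was 1.01 within the prefix of replicate 4. Libraries of the same replicate number had correlations of deviations of 0.201, 0.210, 0.290 and 0.0240. Mutant 2 correlated best with Wild type 1 (0.253), of the same label prefix, and Mutant 4 with Wild type 3 (0.384), of another prefix. Pairs that share a prefix had values of 0.0240 to 0.290, and pairs of different prefixes -0.358 to 0.384. These few values cannot settle whether the samples were paired, and the main fit used no pairing. With the replicate block 68 genes were higher (median 0.38), with Rpl22 (0.20), Rpl39 (0.24), Rps16 and Rps28 added, and with the prefix as a block 70 were, with Rpl21 and Rps3a2 added as well; Rpl22 and Rpl39 were also called without Mutant 2 or Wild type 4. Rpl38 stayed below 0 in all 20 settings. The cause of these shifts was not tested.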
